A study of Mus musculus with 16 samples.

Results

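The genes described here encode 10 mechanosensitive or osmotically activated ion channels of the optic nerve head: Piezo1, Piezo2, Trpv2, Trpv4, Trpc1, Trpc6, Trpm7, Panx1, Tmem63a and Tmem63b. They were chosen by name from the deposited count table of 23337 genes, in which 8 stand under these symbols. Piezo1 and Piezo2 are listed there under their older symbols Fam38a and Fam38b, and both were matched by the synonym in RefSeq.

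RNA was sequenced from the unmyelinated optic nerve head of wild type C57BL/6 mice in 4 groups of 4 libraries. The groups were mice 4 weeks after an injection of microbeads into the front chamber of 1 eye, mice 4 weeks after one of saline, both labelled 13 weeks, naïve mice of 40 weeks (10 months), called aged, and naïve mice of 13 weeks (3 months), called young. Beads that block the drainage of aqueous humor raise intraocular pressure, and no group carries a transgene. Each library pooled 4 right nerves from 4 mice, both sexes in equal number, so single animals cannot be separated. Library totals ran from 6213789 to 10726122 counts. A code in the sample titles was 3 for young naïve libraries and aged replicates 1 to 3. It was 4 for aged replicate 4, all saline libraries and microbead replicates 1 and 2, and 5 for microbead replicates 3 and 4. Fewer cells of a type and less RNA per cell cannot be told apart in such bulk tissue.

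Mechanosensitive channels are pores in the cell membrane that open when the membrane is stretched, bent or swollen, and most of them let calcium into the cell. Piezo proteins form large trimers that curve the membrane and flatten under tension. Several Trp channels respond to stretch, swelling, lipids or store depletion, often downstream of other sensors. Pannexin forms large pores through which ATP leaves the cell, and TMEM63 proteins are relatives of the plant OSCA channels. In the glial lamina the axons of ganglion cells pass between astrocytes, and intraocular pressure deforms this tissue.

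The authors left out aged replicate 2 and saline replicate 4, and the 14 libraries in their comparison tables are the main set here. The 16 libraries also differed along gene length. Across 14417 genes, the rank correlation between exon length and the level relative to young naïve libraries was 0.401 to 0.459 in the microbead libraries, -0.202 to -0.173 in the first 3 saline libraries and 0.466 in the fourth. It was 0.36, 0.438 and 0.377 in aged replicates 1, 3 and 4, -0.246 in aged replicate 2, and -0.381 to 0.262 in the young naïve libraries. These are correlations across genes, which are not independent replicates. Each of the 2 libraries left out therefore lay apart from its own group on this measure. Piezo2, Piezo1 and Trpm7 have the longest exon lengths of the 10 channels, 10724, 8216 and 7145 bases, and the other 7 have 2075 to 3259 bases, so the calls below are also given with the length trend of each library removed.

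All 10 astrocyte markers had counts in every library. The summed level of that list was 13910 to 18250 normalised counts (CPM, scaled to the TMM library size) in microbead, 14970 to 15870 in saline, 9091 to 9759 in aged and 12580 to 15200 in young naïve libraries. Gfap made up much of these sums, at 3584 to 4113 CPM in aged and 5231 to 6497 CPM in young naïve libraries. Aqp4 of the same list went the other way, at 255 to 278 CPM in aged and 168 to 195 CPM in young naïve libraries. Over the 10 markers the median log2 fold change, aged against young naïve, was -0.55. The aged and saline values leave out aged replicate 2 and saline replicate 4.

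All 10 channels passed the filter on low counts. Levels can be compared between genes only per length, here as RPKM, the CPM divided by the exon length in kilobases. By median RPKM over 16 libraries the order was Tmem63a (20.5), Trpv2 (12.8), Tmem63b (11.2), Trpm7 (7.53), Trpc1 (5.17), Panx1 (5.09), Trpv4 (3.96), Piezo2 (2.89), Piezo1 (1.78) and Trpc6 (1.14). The library ranges of every pair of neighbours in this order overlapped. Trpm7 still exceeded Trpc1, and Piezo2 exceeded Piezo1, in 16 of 16 libraries. Trpc1 exceeded Panx1 in 8 of 16 libraries and Trpv2 exceeded Tmem63b in 11, so these pairs have no stable order. Trpc6 had only 16 to 62 counts per library, which makes it the least precise channel here, and its highest library was 4.04 times its lowest. Panx1 varied least, 1.43-fold between its extreme libraries.

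The count table gives Piezo1 and the tRNA thiolation gene Ctu2, on the opposite strand, 990 exon bases in common. The kit does not mark the strand, so reads from those bases cannot be assigned to one of the 2 genes, and the Piezo1 level carries that uncertainty. None of the other 9 channels shared exon bases with another row of the table.

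**Figure D1:**
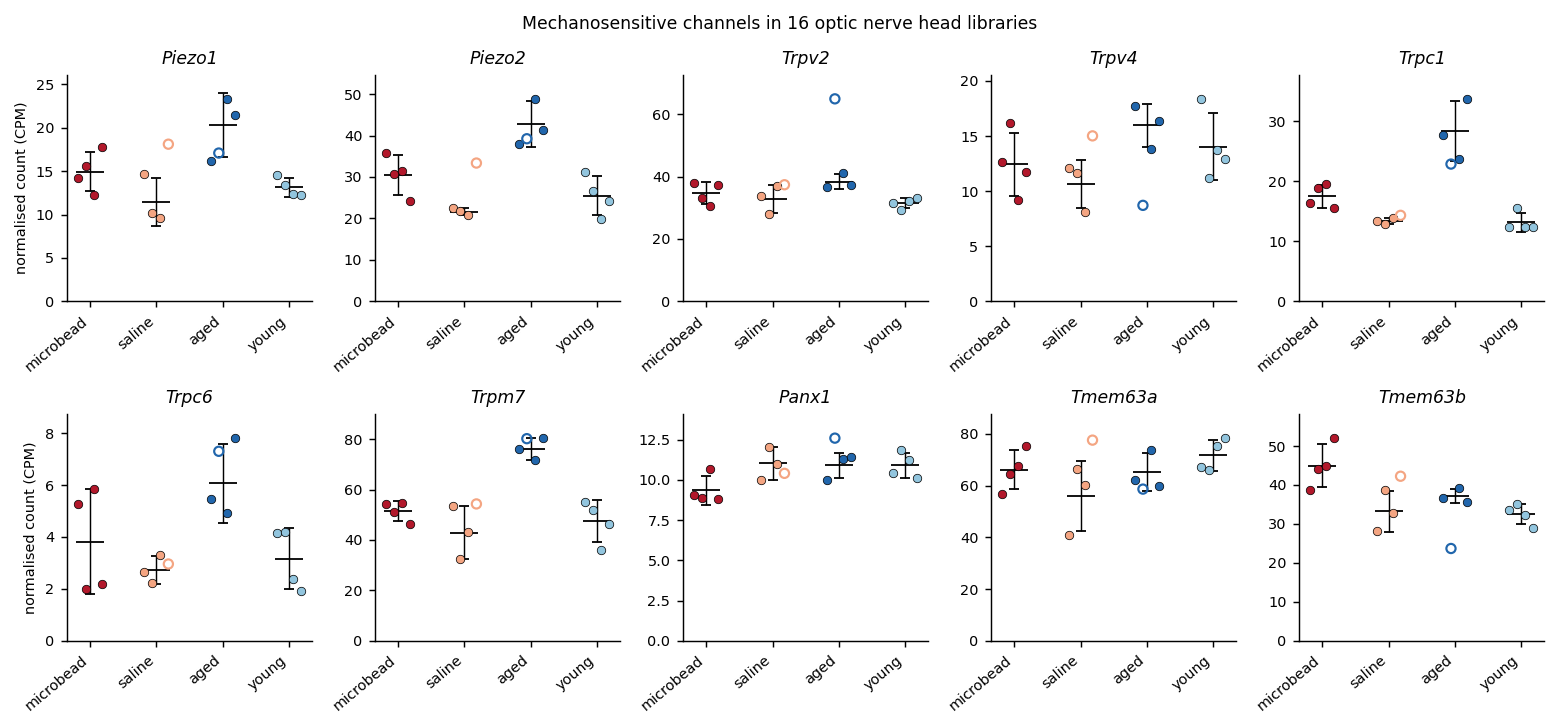
Normalised counts (CPM, linear axis from 0) of the 10 channels in each library, by group. Filled points are the 14 libraries, open points aged replicate 2 and saline replicate 4, and bars give the mean and SD of the filled points. Trpc1, Piezo2 and Trpm7 were higher in each of the 4 aged libraries than in any of the other 12 libraries.

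The comparison of aged with young naïve nerves sets uninjected groups of different age side by side. The paper also lists a higher RNA concentration for every aged pool than for every young naïve pool. Age and this difference cannot be told apart. A gene was called when its fold change was at least 1.5, with p under 0.01 and adjusted p under 0.05 in edgeR's quasi-likelihood test, adjusted by Benjamini-Hochberg over 14541 genes. Trpc1, Piezo2, Trpm7 and Piezo1 rose with age, and none of the 10 channels fell. Over all genes tested 15.1% were called higher and 11.4% lower. With all 16 libraries the count was again 4, with Trpc6 in place of Piezo1, where 11.3% of genes were called higher. The median log2 fold change was 0.45 over the channels and 0.02 over all genes.

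Trpc1 encodes a Trp subunit that assembles with other Trpc proteins and takes part in calcium entry after store depletion. Its level was 27.7, 22.9, 23.7 and 33.7 CPM in aged replicates 1 to 4, against 12.3, 15.6, 12.4 and 12.4 CPM in young naïve replicates 1 to 4. The groups were far apart, and aged replicate 2, which lacks the length trend of the other aged libraries, lay with them. Trpc1 averaged 28.4 ± 5.04 CPM in aged and 13.2 ± 1.61 CPM in young naïve nerves (SD, n = 3 and n = 4), a 2.15-fold difference (log2 1.10, SE 0.138, edgeR adjusted p = 5.075e-06). With the length trend removed the log2 fold change was 1.04, and with 16 libraries 1.03. Leaving out each library in turn gave 0.96 to 1.22, with the call kept each time. Trpc1 was the only one of the 10 channels called in every one of these settings.

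Piezo2, best known as the touch and stretch sensor of sensory neurons, had 38.1, 39.2, 48.8 and 41.2 CPM in aged replicates 1 to 4, against 31.2, 26.6, 20.0 and 24.2 CPM in young naïve replicates. No aged library overlapped a young one. Its log2 fold change was 0.75 (SE 0.146, adjusted p = 0.0003994), or 1.68-fold. Removing the length trend ended the call, with a log2 fold change of 0.43, below the minimum, and an adjusted p of 0.008578.

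Trpm7, a channel for magnesium, zinc and calcium fused to a kinase domain, had 76.2, 80.2, 71.7 and 80.4 CPM in aged libraries, against 54.9, 52.0, 36.0 and 46.5 CPM in young naïve libraries. The aged libraries were close together and all above the young ones. On the log2 scale the difference was 0.68 (SE 0.148, adjusted p = 0.001044). It was 0.41 with the length trend removed (adjusted p = 0.01181) and 0.57 without young replicate 3, and in both cases it no longer reached the fold minimum.

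Piezo1, a pressure and shear sensor of endothelium, red cells and many other cells, had 16.2, 17.1, 23.3 and 21.4 CPM in aged libraries, against 14.6, 13.4, 12.4 and 12.2 CPM in young naïve libraries. The groups did not overlap, but the gap between the lowest aged and the highest young library was small. Piezo1 had a log2 fold change of 0.62 (SE 0.169, adjusted p = 0.005252). The call was lost with the length trend removed (0.32, adjusted p = 0.09878), with 16 libraries (0.57, adjusted p = 0.03276), and without aged replicate 3 (0.51) or aged replicate 4 (0.585, a fold just under 1.5).

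The length trend touched many genes besides these. Of 964 genes with an exon length of at least that of Trpm7, 32.3% were called higher in aged nerves, and 13.6% once the trend was removed. The shares over all genes were 15.1% and 11.4%. The 3 long channels have exon lengths in this class, and Trpc1 has 3012 exon bases. In the 14 libraries the trend was 0.36 to 0.438 in aged and -0.381 to 0.262 in young naïve libraries. Removing it can therefore also remove differences between these groups. Aged replicate 2, at -0.246, had 39.2 CPM of Piezo2, 80.2 CPM of Trpm7 and 17.1 CPM of Piezo1. The part of the trend in the channel results was not tested.

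**Figure D2:**
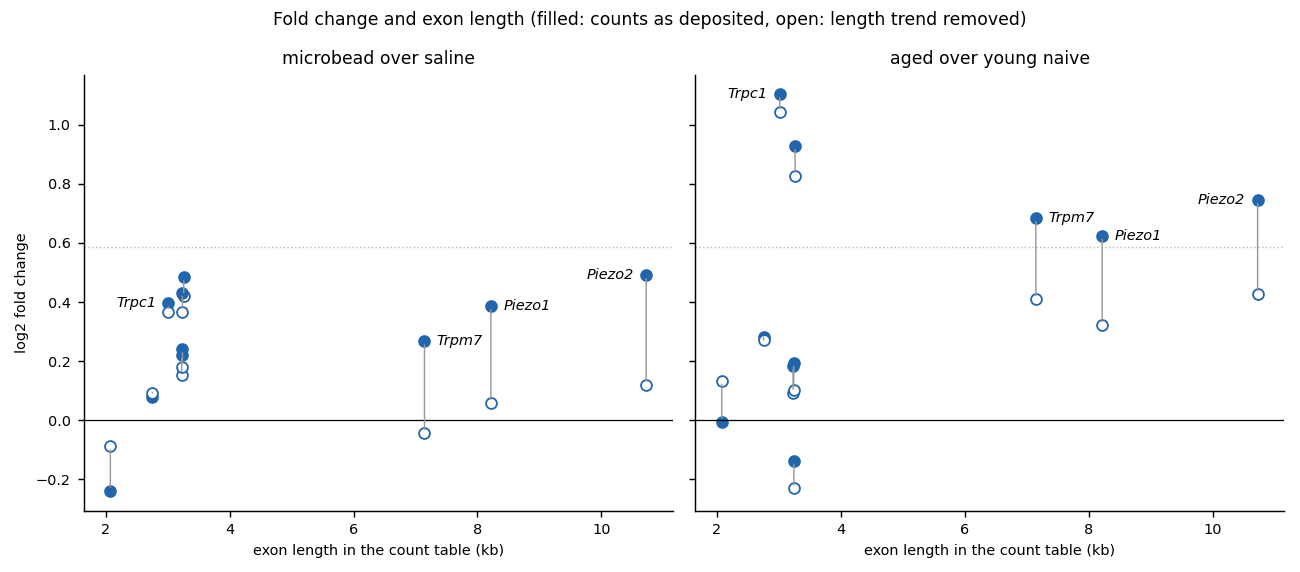
Log2 fold change of each channel against its exon length in kilobases, for microbead over saline (left) and aged over young naïve nerves (right), in 14 libraries. Filled points use the deposited counts, open points have the length trend removed, and the dotted line is a 1.5-fold increase. Trpm7, Piezo1 and Piezo2 drop below the line with the trend removed in the right panel (0.41, 0.32 and 0.43), while Trpc1 stays at 1.04.

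Trpc6, a diacylglycerol-gated channel of smooth muscle and podocytes, had 5.47, 7.30, 4.91 and 7.81 CPM in aged libraries, against 4.15, 4.18, 2.38 and 1.93 CPM in young naïve libraries. Its log2 fold change of 0.93 (SE 0.367) was the second largest of the 10 channels, but p was 0.02134 and the adjusted p 0.04453 in 14 libraries, which missed the threshold. With 16 libraries it was called (log2 1.00, adjusted p = 0.03129), and with the length trend removed in 14 libraries it was 0.83 (adjusted p = 0.08425) and not called. Trpv2, a channel of immune cells and neurons activated by swelling and heat, had 36.5, 64.9, 41.0 and 37.3 CPM in aged libraries, against 31.4, 29.2, 32.3 and 33.1 CPM in young naïve libraries. Its aged libraries lay above the young ones, and the difference was modest (log2 0.28, adjusted p = 0.04455) and not called. Aged replicate 2 alone held its highest level.

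The other 4 channels showed little difference with age. Trpv4, an osmosensor found in glia and endothelium, had a log2 fold change of 0.18 (95% interval -0.24 to 0.60), and Panx1 one of 0.00 (-0.29 to 0.29). Tmem63a and Tmem63b, which open under membrane stretch or hypo-osmotic stress, had -0.14 (-0.43 to 0.16) and 0.19 (-0.06 to 0.45). The intervals of Panx1, Tmem63a and Tmem63b exclude a 1.5-fold increase, whereas that of Trpv4 does not. In all, 7 of 10 channels were higher in aged nerves with no overlap in 14 libraries, and 6 of 10 in 16 libraries, where 27.2% and 14.6% of all genes were. Tmem63b was the channel that overlapped once aged replicate 2, at 23.7 CPM, was included.

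Several marker lists of other cell types moved with age. In aged against young naïve libraries of the 14, without overlap, the summed level was 1044 to 1168 against 1548 to 1887 CPM for 10 microglia and macrophage markers, 447 to 538 against 630 to 741 CPM for 8 endothelial markers, 664 to 738 against 961 to 1101 CPM for 8 mural markers, and 9493 to 17870 against 27510 to 33540 CPM for 9 meningeal and fibroblast markers. Sums were also lower without overlap for 8 oligodendrocyte markers, 5200 to 7306 against 10010 to 12220 CPM, and for 9 ganglion cell axon and neuron markers, 128 to 177 against 197 to 414 CPM. With all 16 libraries these lists stayed without overlap except the meningeal list, which summed to 44960 CPM in aged replicate 2. Photoreceptor and pigment epithelium markers overlapped, with sums of 699 to 2997 CPM (aged) and 470 to 4550 CPM (young naïve). So did 5 oligodendrocyte precursor markers, with 192 to 200 CPM (aged) and 165 to 211 CPM (young naïve). Single markers did not all follow the sums. With age 1 oligodendrocyte marker was called higher and 2 lower, and 1 mural marker higher and 3 lower. Of the 10 astrocyte markers 0 were called higher and 4 lower in the 14 libraries. Over all genes 15.1% were called higher and 11.4% lower. The part of cell composition in the channel results was not tested.

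The comparison of microbead with saline injected nerves sets groups with and without raised intraocular pressure side by side. The paper also lists a lower RNA concentration for each saline pool of the 14 libraries than for any microbead pool. Saline replicate 4, left out of the 14, lay within the microbead range. Microbead replicates 3 and 4 also carry a title code that no saline library has. In the 14 libraries raised pressure and the difference in RNA concentration cannot be told apart. None of the 10 channels was called by edgeR, although 9.39% of all genes were called higher and 3.06% lower in the 14 libraries. DESeq2 also called 0. At an unadjusted p under 0.05 there were 4 channels (Tmem63b, Piezo2, Trpc1 and Piezo1), where 43.2% of all genes were, and 3 of them also had an adjusted p under 0.05, each below the 1.5-fold minimum. Of the 10 estimates 9 were positive, with a median log2 fold change of 0.33 against -0.01 over all genes. With 16 libraries no gene of the whole table was called (0.0% higher), and 2 channels had an unadjusted p under 0.05, as did 19.2% of genes.

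**Figure D3:**
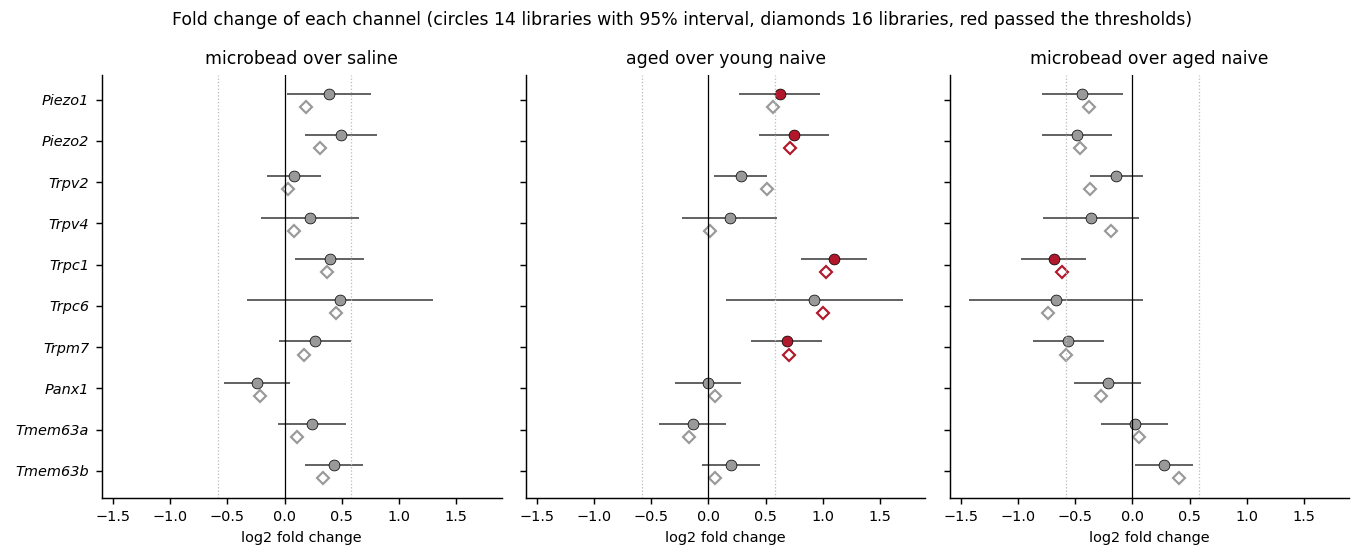
Log2 fold change of the 10 channels in 3 comparisons: microbead over saline, aged over young naïve, and microbead over aged nerves. Circles are 14 libraries with the 95% interval, open diamonds 16 libraries, red marks passed the thresholds, and dotted lines are 1.5-fold. No channel is red in the left panel, 4 are in the middle panel for either set of libraries, and Trpc1 alone is in the right panel, at -0.69 in 14 libraries.

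Tmem63b had 38.6, 44.1, 44.9 and 52.0 CPM in microbead replicates 1 to 4, against 28.3, 38.8, 32.7 and 42.2 CPM in saline replicates 1 to 4. The microbead libraries were generally higher, but saline replicates 2 and 4 reached into their range. Its log2 fold change was 0.43 (SE 0.121, 95% interval 0.18 to 0.69, edgeR adjusted p = 0.01026), the smallest adjusted p of the 10 channels, and 0.37 with the length trend removed. With saline replicate 4 included it was 0.34 with an adjusted p of 0.2546.

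Piezo2 had 35.9, 30.8, 31.4 and 24.2 CPM in microbead libraries, against 22.5, 21.7, 20.8 and 33.4 CPM in saline libraries. Saline replicates 1 to 3 lay below every microbead library, and saline replicate 4 lay above 3 of the 4. The log2 fold change was 0.49 (SE 0.151, adjusted p = 0.01757) in 14 libraries, 0.31 (adjusted p = 0.3175) in 16 and 0.12 (adjusted p = 0.5647) with the length trend removed. Without microbead replicate 4 (0.60), or among the libraries with the same code in their sample titles (0.62), it passed the thresholds.

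Trpc1 had 16.3, 18.8, 19.5 and 15.5 CPM in microbead libraries, against 13.3, 12.9, 13.8 and 14.3 CPM in saline libraries. All 4 microbead libraries were above all 4 saline libraries, saline replicate 4 included. The difference was 0.40 on the log2 scale (SE 0.143, adjusted p = 0.03991), or 1.32-fold, and p was 0.01267, over the limit of 0.01. It stayed between 0.35 and 0.40 with 16 libraries, with the length trend removed, with both, and within the same library code, and passed the thresholds in none of them. In 14 libraries 2 channels (Piezo2 and Trpc1) were higher without overlap, where 19.8% of genes were, and in 16 libraries only Trpc1, where 3.54% were.

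**Figure D4:**
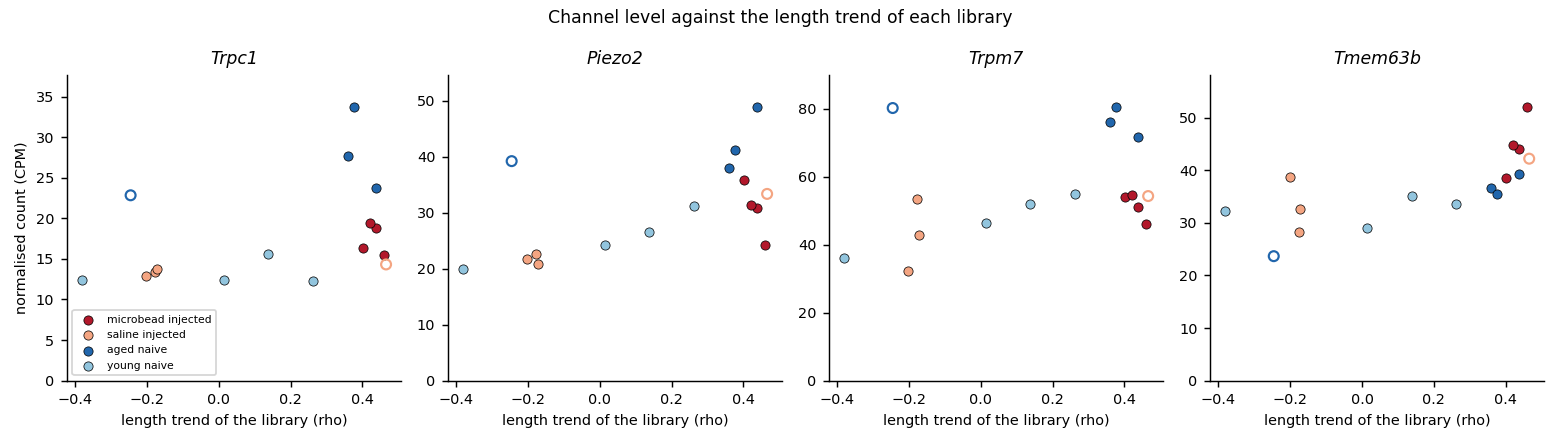
Normalised count (CPM) of 4 channels in each library against the length trend of that library, the rank correlation between exon length and relative level across genes. Filled points are the 14 libraries, open points aged replicate 2 (left, near -0.25) and saline replicate 4 (right, near 0.47). Aged replicate 2 keeps the high Trpc1, Piezo2 and Trpm7 of the other aged libraries, and saline replicate 4 has the Piezo2 and Tmem63b levels of microbead libraries but the Trpc1 level of saline libraries.

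Piezo1 had 14.2, 15.6, 12.3 and 17.7 CPM in microbead libraries, against 14.7, 10.2, 9.63 and 18.1 CPM in saline libraries. The groups overlapped fully. The log2 fold change of 0.39 (adjusted p = 0.09788) was 0.06 with the length trend removed, and without saline replicate 1 it was 0.59 and passed the thresholds. Trpm7 had 54.1, 51.0, 54.7 and 46.2 CPM in microbead libraries, against 53.5, 32.3, 43.0 and 54.3 CPM in saline libraries, a log2 fold change of 0.27 (95% interval -0.05 to 0.59) that turned to -0.04 with the length trend removed.

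For the remaining channels the intervals bound what these libraries allow. Trpv2 had a log2 fold change of 0.08 (95% interval -0.16 to 0.32), Tmem63a 0.24 (-0.05 to 0.54) and Panx1 -0.24 (-0.53 to 0.05), all of which exclude a 1.5-fold increase or decrease. Panx1 was the only channel with a negative estimate, with 9.07, 8.88, 10.7 and 8.81 CPM in microbead and 10.0, 12.1, 11.0 and 10.4 CPM in saline libraries. Trpv4 (0.22, -0.21 to 0.65) and Trpc6 (0.48, -0.33 to 1.30) were measured too loosely for such a statement. Trpc6 was split within the microbead group, at 5.26 and 5.85 CPM in replicates 1 and 3 and 2.01 and 2.18 CPM in replicates 2 and 4. Microglia and macrophage markers summed to 1301 to 1498 CPM in microbead and 1576 to 2003 CPM in saline libraries of the 14, and overlapped once saline replicate 4 (1377 CPM) was included. The 4 blood markers, 2 of them at 0 in every library, summed to 13.9 to 48.6 CPM in microbead and 49.7 to 142 CPM in saline libraries of the 14, with both detected genes called lower, and also overlapped in all 16. The part of either list in these values was not tested.

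Microbead and aged nerves were also set against each other. Trpc1 was lower in microbead than in aged nerves, averaging 17.5 ± 1.91 CPM in microbead and 28.4 ± 5.04 CPM in aged libraries (SD, n = 4 and n = 3), with a log2 fold change of -0.69 (SE 0.136, edgeR adjusted p = 0.001572). It was the only channel called, in 14 libraries as in 16 (-0.62, adjusted p = 0.006994). Over all genes 6.07% were called higher and 4.78% lower in 14 libraries, and 4.2% lower in 16. With the length trend removed Trpc1 was again the only channel called (-0.69, adjusted p = 0.001418). Without aged replicate 4 the difference was -0.55 and not called. Trpm7 (-0.56, adjusted p = 0.01021) and Piezo2 (-0.49, adjusted p = 0.01993) stayed below the fold minimum. Both were lower in every microbead library than in every aged library, as was Trpc1, where 15.2% of genes were lower without overlap. The 2 groups differ in age and treatment together, and the aged group is shared with the comparison by age.

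The difference between the 2 responses was tested in the same model. For Trpc1 the microbead response was 0.71 smaller than the age response on the log2 scale, an estimate of -0.71 (SE 0.199, edgeR adjusted p = 0.03026). It was the only channel of 10 past an adjusted p of 0.05, where 10.8% of genes were. With 16 libraries the estimate was -0.66 and the adjusted p 0.07842, with 0 channels and 3.97% of genes past it, 2 channels and 18.6% of genes at an unadjusted p under 0.05, and 0 channels by DESeq2. Leaving out young replicates 1, 3 or 4, aged replicate 4, saline replicate 3 or microbead replicate 4, each alone, raised the adjusted p to between 0.05057 and 0.09953. With the length trend removed it was 0.03167. For the other 9 channels, among them Piezo2 (-0.25, 95% interval -0.69 to 0.19) and Trpm7 (-0.42, -0.86 to 0.03), the responses to microbeads and to age were not distinguished.

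Saline injected nerves were also set against young naïve nerves. All saline libraries have title code 4 and all young naïve libraries code 3, so injection and code cannot be told apart. None of the 10 was called by edgeR or DESeq2, 1 (Tmem63a) had an unadjusted p under 0.05, as did 1744 of 14541 genes, and 0.00688% of genes were called lower. With the length trend removed the count was again 0. Tmem63a had 40.8, 66.6, 60.3 and 77.6 CPM in saline libraries, against 67.1, 66.2, 75.3 and 78.4 CPM in young naïve libraries. Only saline replicate 1 was clearly low (log2 -0.36, adjusted p = 0.3209). Log2 fold changes of the 10 channels lay between -0.40 and 0.06, and all of them overlapped between the groups.

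Other genes around these channels were counted by lists, to be read beside all genes tested, of which 15.1% were called higher and 11.4% lower with age, and 9.39% higher and 3.06% lower with microbeads. Of 17 further mechanically gated or osmotically activated channels tested, 5 were called higher and 0 lower in aged against young nerves, with a median log2 fold change of 0.32 beside 0.02 over all genes, and 3 higher and 0 lower in microbead against saline nerves, with a median of 0.44 beside -0.01. With the length trend removed these counts were 4 higher and 1 lower with age, and 2 higher with microbeads. In that setting 11.4% of all 14541 genes were called higher with age and 5.23% with microbeads, and 1363 and 197 genes lower. The same all-gene values stand beside the trend-removed counts of the lists below. Pkd1, which encodes the large membrane protein polycystin-1, averaged 449 ± 87.4 CPM in aged and 100.3 ± 9.61 CPM in young naïve libraries (log2 2.16, edgeR adjusted p = 2.631e-09). In microbead against saline libraries it had 186 ± 21.2 and 95.1 ± 11.3 CPM (log2 0.97). Lrrc8b, a subunit of volume-regulated anion channels, rose in both (log2 1.53 with age and 1.01 with microbeads).

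Of 13 further Trp and mucolipin channels tested, 3 were called higher and 0 lower with age, and 2 higher and 1 lower with microbeads, with medians of 0.35 and 0.38. Correcting for length left 2 higher and 0 lower with age, and 0 in either direction with microbeads. Trpm4, a sodium-permeable channel opened by calcium, rose with age (log2 1.05). In microbead against saline nerves the endolysosomal channel Mcoln3 fell (log2 -0.92, adjusted p = 0.01176) and the oxidant-sensitive channel Trpm2 rose at a low level (log2 1.31, with 2.07 ± 0.684 CPM in microbead and 0.824 ± 0.166 CPM in saline libraries). Neither Mcoln3 nor Trpm2 was called with the length trend removed, nor without saline replicate 3 (log2 -0.87 and 1.16), nor Mcoln3 without microbead replicate 4 (-0.82).

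Among 30 partners and regulators of these channels, 6 rose and 3 fell with age, and 8 rose and 0 fell with microbeads, with medians of 0.18 and 0.17. After removal of the length trend 6 were higher and 4 lower with age, and 3 higher and 2 lower with microbeads. Stim1, the store sensor that gates Orai and acts on Trpc1, had 54.8 ± 1.27 CPM in aged and 31.4 ± 0.841 CPM in young naïve libraries (log2 0.80, adjusted p = 4.316e-06). In microbead and saline libraries it had 53.0 ± 2.82 and 33.0 ± 5.02 CPM (log2 0.68), and without saline replicate 1 or with the length trend removed this was 0.56 and not called. The kinase Src rose in both (log2 1.42 with age, 1.47 with microbeads). The calmodulin gene Calm3 rose with age (log2 0.73).

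Of 33 genes for calcium removal and calcium-dependent effectors, 11 rose and 2 fell with age and 8 rose and 0 fell with microbeads, with medians of 0.28 and 0.23. Removing the length trend left 8 higher and 2 lower with age, and 6 higher and 1 lower with microbeads. Nfatc4, a calcineurin-dependent transcription factor, and Itpkb, an inositol trisphosphate kinase, rose with age (log2 1.43 and 1.38) and with microbeads (0.82 and 1.51). The calpains went opposite ways with age, since Capn1 averaged 29.0 ± 0.415 CPM in aged nerves, against 10.3 ± 1.02 CPM in young naïve nerves (log2 1.49), and Capn2 108 ± 4.61 CPM in aged, against 274 ± 28.7 CPM in young naïve nerves (log2 -1.34). Capn1 also rose with microbeads (log2 1.58), and Capn2 had -0.24 (adjusted p = 0.1041).

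Of 23 genes for ATP release and purinergic signalling, 3 rose and 2 fell with age, and 1 rose and 1 fell with microbeads, with medians of -0.11 and -0.01. Without the length trend 2 were higher and 3 lower with age, and 1 was higher and 0 lower with microbeads. The adenosine receptor gene Adora2a rose in both (log2 1.80 with age, 1.36 with microbeads). Of the nucleotide receptors, P2ry6 rose (0.98) and P2ry13 fell (-0.82) with age, and P2ry14 fell with microbeads (-0.76). With all 16 libraries every microbead count in these 5 lists was 0, with edgeR, as for the whole table, where 2772 genes had an unadjusted p under 0.05 and DESeq2 called 32 higher and 26 lower.

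The genes most like a channel across libraries were found by Pearson's r of log2 CPM over 16 libraries. They were Pdpr (0.96), D730040F13Rik (0.951) and Brwd1 (0.951) for Trpc1, Ncapd3 (0.967), Zbed6 (0.943) and Smg1 (0.939) for Piezo2, and Hook3 (0.964), Map3k2 (0.963) and Jhdm1d (0.961) for Trpm7. These points share the 4 groups and the length trend, so the values describe a pattern and no more.

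The promoters of 3 of the 4 channels that rose with age are shown, chosen for that call alone. Promoters from RefSeq (GRCm38.p6, the mm10 build) were used for 9 of the 10 channels. A sequence is printed for Trpc1, Trpm7 and Piezo1. Each line is the sequence before the annotated start in the direction of the gene, on the minus strand at chr9:95750359-95750598, chr2:126876262-126876511 and chr8:122551330-122551579. For Trpc1 the 10 bases that lie inside the gene in the count table are not shown. Capitals mark matches to 3 motifs, each read on both strands. The GC box was searched as GGGCGG, the E-box was searched as the palindrome CACGTG, and the TATA box was searched as the 6 letters TATAAA.
Trpc1: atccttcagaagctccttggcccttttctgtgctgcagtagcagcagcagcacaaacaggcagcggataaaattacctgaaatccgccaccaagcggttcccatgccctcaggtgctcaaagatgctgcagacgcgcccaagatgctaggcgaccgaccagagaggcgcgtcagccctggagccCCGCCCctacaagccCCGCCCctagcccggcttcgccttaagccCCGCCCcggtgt
Trpm7: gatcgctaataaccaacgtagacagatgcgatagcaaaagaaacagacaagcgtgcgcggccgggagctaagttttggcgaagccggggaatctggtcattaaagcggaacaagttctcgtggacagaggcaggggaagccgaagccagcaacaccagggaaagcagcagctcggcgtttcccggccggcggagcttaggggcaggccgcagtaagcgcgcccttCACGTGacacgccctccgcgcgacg
Piezo1: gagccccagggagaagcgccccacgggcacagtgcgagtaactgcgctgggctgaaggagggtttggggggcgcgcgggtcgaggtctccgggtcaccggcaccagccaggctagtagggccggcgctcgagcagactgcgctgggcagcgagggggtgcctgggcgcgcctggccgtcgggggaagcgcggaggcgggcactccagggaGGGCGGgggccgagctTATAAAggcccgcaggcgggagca

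Trpc1 holds 3 GC boxes, all on the reverse strand, Piezo1 holds 1 GC box and 1 TATA box, and Trpm7 holds 1 E-box and no GC box. A GC box occurs in 32.7% of 32817 mouse promoter windows of 250 bases, an E-box in 6.02% and a TATA box in 12.4%. Over the 9 channels used, without Piezo2, a GC box was found in 5 and a CCAAT box in 2 (33.8% of all windows). GGAATG, the core of the TEAD motif, was found in 1 (12.6% of all windows), in a start of Trpv2, and the palindrome TGACGTCA (CRE) in 0 (1.55% of all windows). No motif was common to all 3 printed promoters, and a match is a description of letters only.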

How the data were processed

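cDNA libraries of the SMARTer Ultra Low Input v3 kit do not mark the strand. Reads were aligned by the authors to mm10 with STAR 2.3.0 and whole counts per gene from featureCounts were deposited, for which the sources used here give no version or annotation, with the exon length of each gene. The authors' comparison tables hold signal values, counts divided by a size factor, which served only to identify the 14 libraries kept, and their own fold changes and p-values, which were not used. All values start from the deposited counts.

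Counts were filtered with filterByExpr, scaled by TMM and tested in 1 model of 4 groups by edgeR 4.0.16 (R 4.3.3, robust quasi-likelihood), with DESeq2 1.42.0 as an alternative. P-values were adjusted by Benjamini-Hochberg over all genes tested. CPM use TMM factors of all 16 libraries. The length trend was removed by a loess fit (span 0.5) of each library. Replicates came from different pools of mice, and counts carry counting error. The channels, lists, tests and rules were chosen with earlier results of these data known. The text names all 10 channels and, of each list, up to 4 called genes with the smallest p in either main comparison, and the 3 nearest genes by r for 3 channels. Some single genes of the lists are not reported here. The procedure was tested on simulated counts. Further alternatives were RLE or upper quartile factors, a stricter filter (5 CPM in 3 libraries) or none, a fit of only the groups compared, no fold minimum, all 16 libraries, a replicate block, libraries of 1 title code, and each library left out in turn. Combinations with 16 libraries (same code, length trend, DESeq2, no fold minimum) were added after seeing the data.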

Additional observations from a re-analysis of the deposited data

Results flagged for a closer look

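Among the 40 sets of 4 libraries (10 channels in 4 groups), 4 held 1 library far from the other 3, and chance alone flags about 1 in 20 such sets. Piezo2 in saline replicate 4 was 33.4 CPM, against 20.8 to 22.5 CPM in the other saline libraries. Trpv2 in aged replicate 2 was 64.9 CPM, against 36.5 to 41.0 CPM in the others. Both are the libraries the authors left out. Trpc1 in young naïve replicate 2 was 15.6 CPM, with the other 3 at 12.3 to 12.4 CPM, and Panx1 in microbead replicate 3 was 10.7 CPM, with the others at 8.81 to 9.07 CPM.

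The Trpc1 response to microbeads differed from its response to age by -0.71 on the log2 scale (edgeR adjusted p = 0.03026).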

How the results depend on the processing

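With age, 4 channels were called, and 1 (Trpc1) with the length trend removed, alone, with the replicate block or with 16 libraries. In these settings without the trend 11.4%, 11% and 9.38% of all genes were called higher. Leaving out each library gave 3 to 4 called, where 12.6% to 15.5% of genes were called higher. The fit of only the groups compared gave 5 (with Trpc6), where 15.4% were. With 16 libraries the count was 6 with no fold minimum and 3 within the same library code, where 15.6% and 5.78% were. For microbead over saline the 0 became 2 with no fold minimum (Piezo2 and Tmem63b), where 16.3% of all genes were called higher. The 0 became 1 within the same library code (Piezo2), where 7.39% were. On leaving out each library it was 0 to 1, where 8.32% to 10% were. For microbead over aged, the 1 became 2 with upper quartile factors, 3 with no fold minimum, 2 with 16 libraries and either the length trend removed or no fold minimum, and 0 to 2 on leaving out each library. Of all genes, 10.7% were called in either direction with upper quartile factors and 24.2% with no fold minimum. With 16 libraries it was 10.7% with the trend removed and 15.6% with no fold minimum. Leaving out each library of the 14 gave 6.76% to 11.7%. For the difference of the responses the 1 channel became 0 with 16 libraries, by edgeR or DESeq2, and 0 to 1 on leaving out each library. For saline over young it stayed 0 in every setting run.

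Estimates near 0 changed sign. For microbead over saline, Trpm7 was -0.043 with the length trend removed, -0.027 with the block as well and -0.049 with 16 libraries, Piezo1 was -0.032 with the trend removed in 16 libraries, Tmem63a was -0.013 within the same code in 16 libraries, and Trpv2 ran from -0.024 to 0.173 on leaving out each library. For aged over young, Panx1 was 0.053 with 16 libraries, 0.002 with the stricter filter, 0.02 with the replicate block, 0.134 with the length trend removed, 0.158 with the block as well, 0.15 with the trend removed in 16 libraries, 0.038 with DESeq2 in 16 libraries, and -0.038 to 0.056 on leaving out each library. Trpv4 was -0.136 within the same code in 16 libraries, -0.04 with the trend removed and -0.006 with DESeq2, and Tmem63b was -0.039 within the same code, all in 16 libraries. The cause was not tested.

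Whether replicate numbers pair the samples could not be settled from 6 correlations. They were 0.139, -0.003 and 0.329 for same-numbered aged and young libraries. For microbead and saline libraries they were 0.103, -0.188 and 0.207. Of the 6, 3 correlated best with their own number. The paper states that microbead and saline nerves were processed in parallel. With the replicate block 4 channels were called with age and 0 with microbeads, and it changed no other count. Trpc6, at 16 to 62 counts a library, had the largest SE of the channels (0.388 for microbead over saline).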
